A study of Mus musculus with 11 samples.

Results

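The response of wild-type (WT) colonic epithelium to dextran sulphate sodium (DSS) was measured by comparing 3 libraries from WT mice given DSS with 2 libraries from WT mice labelled baseline, 5 of the 11 libraries in the series. All libraries hold polyadenylated RNA of colonic epithelial cells enriched on 40% Percoll, a step in a density gradient meant to deplete lymphocytes. The DSS mice received 2% DSS for 7 days and were taken after 2 further days of recovery. The other 6 libraries, 3 at baseline and 3 after DSS, come from mice lacking both miR-181a1-b1 and miR-181a2-b2 (DKO); they entered the estimate of spread and are used as a second DSS comparison. WT mice carry neither deletion, and DSS is the only labelled difference between the 2 WT groups. The labels give no sex, age or strain, and they do not say that each library is 1 mouse, so p-values measure only the spread between these libraries. Of the 54513 genes in the table, 19267 passed the filter on low counts, and the 18500 of these on chromosomes 1 to 19 are the genes described here.

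DSS is a sulphated polysaccharide that strips and injures the epithelium of the colon and lets luminal bacteria reach the mucosa. The intact lining is renewed from stem cells at the crypt base and holds absorptive colonocytes, mucus-secreting goblet cells, deep crypt secretory cells that release antimicrobial proteins, chemosensory tuft cells and hormone-secreting enteroendocrine cells. After injury, surviving crypt cells divide, take up fetal-like and wound-associated gene programmes, and respond to cytokines such as interleukin-22, tumour necrosis factor and interferon-gamma released by immune cells beneath and between them.

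The libraries were of similar depth, with 45219200 to 52761900 counts in the 5 WT libraries. The first principal component of log2 CPM (counts scaled to a common library size by TMM, the level used throughout; 45.5% of variance) put the baseline WT libraries at -71.6 and -61.8 and the DSS WT libraries at 28.2, 64.1 and 64.5. General epithelial genes were abundant in both groups: Krt8, a keratin of simple epithelia, was at 4603 and 5281 CPM at baseline against 5584, 4882 and 4900 CPM after DSS. Epcam was at 1204 and 1758 CPM at baseline against 1337, 1432 and 1375 CPM after DSS, and neither gene passed the test. The sum over 20 epithelial identity genes was 21360 and 23480 CPM at baseline and 24270, 22980 and 22670 CPM after DSS. Of these 20 genes 2 were higher (Cdh17 and Hnf4g) and 4 lower, Krt18 and Klf5 among them. That is 10% and 20%, against 16.8% and 16.7% of all genes. Krt18 was at 491 and 613 CPM at baseline and 340, 340 and 329 CPM after DSS. The GC-adjusted fit described below called 3 higher and 4 lower, and kept 0 of the higher calls. A further difference ran with treatment. Xist, transcribed from the inactive X chromosome of females, was at 6.75 and 7.34 CPM at baseline against 783, 850 and 906 CPM after DSS. The Y-linked Ddx3y was at 52 and 54.9 CPM at baseline against 0.823, 0.895 and 0.587 CPM after DSS. Sex, or any batch of mice that it marks, and DSS cannot be told apart. The 4 deleted microRNA genes had 0 counts in all 11 libraries, WT included, and check nothing about genotype.

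Base composition also moved with treatment. Across 10693 coding autosomal genes, Spearman's rho between the log2 fold change and transcript GC content was -0.52, given as a description because genes share libraries. The median log2 fold change was 0.50 for genes under 40% GC and -1.30 for genes at 60% GC or more, and at 60% or more it was -0.44 for transcripts under 2 kb and -2.12 for those of 4 to 8 kb. Within libraries, rho between a gene's deviation from its mean and GC content was 0.47 and 0.33 at baseline and -0.25, -0.61 and -0.61 after DSS, and the DKO comparison had the same trend (rho = -0.48). What produced this trend was not tested. A second fit, chosen after seeing the data, took a smooth surface over GC content and length out of each library (the GC-adjusted fit), and the counts it gave for gene lists stand beside those of the first fit. Such counts can include genes that the first fit did not call, so they are not the number of calls kept.

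**Figure D1:**
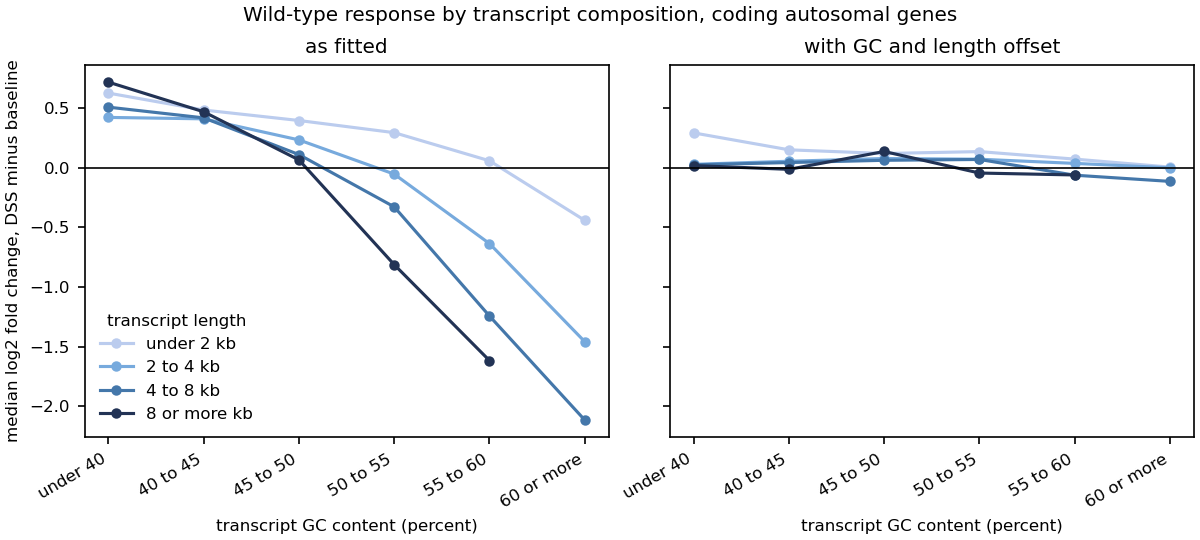
Median log2 fold change (DSS minus baseline, WT; vertical axis) of coding autosomal genes by transcript GC content (horizontal axis, percent), with 1 line for each range of transcript length; the left panel is the count model as fitted and the right panel the GC-adjusted fit. On the left the medians run from 0.50 under 40% GC to -1.30 at 60% or more over all lengths, with long transcripts lowest, and on the right the lines lie near 0.

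After DSS, 3101 of 18500 genes (16.8%) were higher and 3084 (16.7%) lower at an adjusted p under 0.05 by edgeR's quasi-likelihood test, 33.4% in all, against a median log2 fold change of -0.02. At least a 2-fold difference was reached by 868 of the higher and 2074 of the lower genes. With the GC adjustment 14.4% were higher and 15.9% lower. The 2 fits shared 1900 higher calls (61.3% of those in the first fit) and 2151 lower calls (69.7%). They called 16 genes in opposite directions, among them Espn, which encodes an actin-bundling protein (log2 fold change -1.69 as fitted and 0.49 after adjustment). Leaving out baseline replicate 1, which leaves 1 baseline library, reduced the calls to 2660, and 41.3% of the original calls were kept. The calls numbered 4069 without baseline replicate 2, 3991 without DSS replicate 2, 3916 without DSS replicate 3 and 6214 without DSS replicate 1. With 1 baseline library left, that library is assumed to vary like those of the other groups. Counts of gene groups below are read against these shares, since 33.4% of all genes were called.

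Antimicrobial lectins, interleukin-1 beta, mast cell proteases and interferon-induced GTPases were among the genes with the largest increases. Reg3b, a secreted C-type lectin that acts on bacteria, was at 26.9 and 23.3 CPM at baseline and 414, 480 and 506 CPM after DSS (log2 fold change 4.22 ± 0.65 SE, adjusted p = 0.00186). Both Reg3b (chr6:78370657-78373466) and Reg3g (chr6:78466269-78468872) lie on chromosome 6 of GRCm38. Reg3g was at 11.3 and 10.3 CPM at baseline and 75.4, 95.5 and 92.7 CPM after DSS (log2 fold change 3.02 ± 0.40 SE, adjusted p = 0.000865). In both genes every DSS library lay above both baseline libraries, as the rule for naming the largest rises required. Il1b, the cytokine precursor cleaved by inflammasomes, was at 0.222 and 0.319 CPM at baseline and 7.58, 15.5 and 17.7 CPM after DSS (log2 fold change 5.64 ± 0.48 SE, adjusted p = 5.79e-05), and DSS replicate 1 was the lowest of the 3. Slpi, an inhibitor of neutrophil elastase, was at 0.849 and 0.978 CPM at baseline and 4.43, 7.74 and 6.46 CPM after DSS (log2 fold change 2.76 ± 0.45 SE, adjusted p = 0.00139). Acod1, which makes itaconate in activated myeloid cells, had a log2 fold change of 4.14, and Srgn, the proteoglycan of secretory granules in blood cells, one of 2.96. Clca4b, a chloride channel regulator family member, was at 7.54 and 5.74 CPM at baseline and 74.2, 157 and 171 CPM after DSS (log2 fold change 4.33 ± 0.55 SE, adjusted p = 0.000798). Arg1, an arginine-degrading enzyme, had a log2 fold change of 2.71 (adjusted p = 0.0384). This call was lost when any 1 of 4 libraries was left out (adjusted p = 0.196 without baseline replicate 1, 0.14 without baseline replicate 2, 0.0565 and 0.0887 without DSS replicates 2 and 3) and under the GC adjustment (adjusted p = 0.0615).

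The deepest decreases included secretory products and lipid enzymes. Ang4, an antimicrobial ribonuclease of goblet and deep crypt secretory cells, was at 903 and 979 CPM at baseline and 29.2, 34.5 and 32.1 CPM after DSS (log2 fold change -4.88 ± 0.36 SE, adjusted p = 7.95e-05). Pla2g4c, a phospholipase, was at 169 and 254 CPM at baseline and 7.84, 10 and 9.54 CPM after DSS (log2 fold change -4.53 ± 0.37 SE, adjusted p = 0.000121). Pnliprp2, a lipase of the pancreatic family, was at 37.7 and 88.8 CPM at baseline and 2.25, 1.6 and 2.06 CPM after DSS (log2 fold change -5.00 ± 0.57 SE, adjusted p = 0.000493). Groups did not overlap in these genes, as the rule for naming the largest falls required. Itln1, the lectin intelectin-1 of goblet cells, fell (log2 fold change -3.39), as did the circadian repressor Nr1d1 (-4.86). Lama5, a laminin chain of the epithelial basement membrane, was at 24.3 and 24.4 CPM at baseline and 2.8, 2 and 1.58 CPM after DSS. Its log2 fold change of -3.52 became -1.35 after the GC adjustment, and its transcript is 11.4 kb long with 59.9% GC. Cacna1h, a calcium channel subunit, changed in the same way from -3.58 to -1.57, whereas Ang4 and Pla2g4c were as low after adjustment (-5.21 and -4.88). In these bulk samples, fewer cells of a type and less RNA per cell cannot be told apart.

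**Figure D2:**
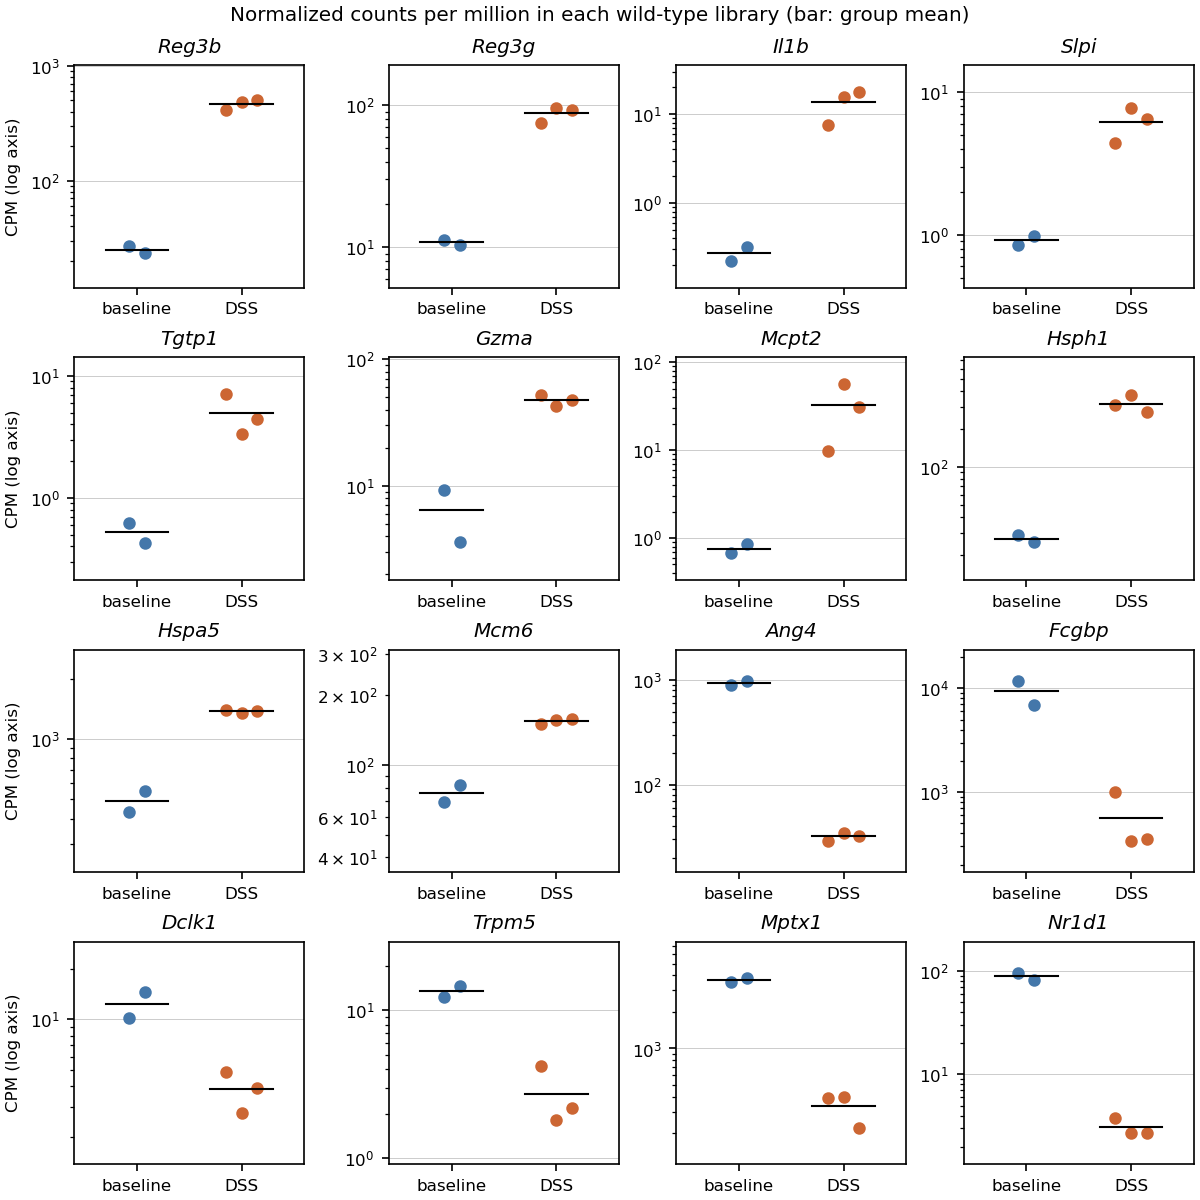
TMM-scaled CPM (vertical axes, logarithmic) of 16 genes in each WT library, with baseline libraries (n = 2) in blue, DSS libraries (n = 3) in orange and the group mean as a bar. In every panel the 2 groups do not overlap, and the share of all genes with groups apart was not counted. The largest rises and falls were named only where groups did not overlap, so for those genes this was set by the choice. Reg3b, for example, was at 26.9 and 23.3 CPM at baseline and at 414 to 506 CPM after DSS.

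Interleukin-22 acts on epithelial cells through the transcription factor STAT3 and induces antimicrobial proteins. Of 26 genes of this defence programme, 6 were higher and 1 lower, 23.1% against 16.8% for higher calls among all genes, with a median log2 fold change of 0.32 (7 higher and 1 lower after the GC adjustment). Apart from Reg3b and Reg3g, the increases were smaller. Osmr, the oncostatin M receptor gene, was at 0.667 and 0.234 CPM at baseline and 1.25, 2.37 and 2.53 CPM after DSS (log2 fold change 2.18 ± 0.48 SE, adjusted p = 0.0056). Duoxa2, the maturation factor of the hydrogen peroxide-producing oxidase DUOX2, was at 12.6 and 17.5 CPM at baseline and 31.4, 44.4 and 34.8 CPM after DSS (log2 fold change 1.30 ± 0.31 SE, adjusted p = 0.0101). Dmbt1, a bacteria-binding scavenger protein, was already abundant at baseline and was at 8684 and 7285 CPM at baseline and 10790, 11850 and 11570 CPM after DSS (log2 fold change 0.51). Lcn2, a siderophore-binding protein often used as a readout of colitis, was low in all 5 libraries, at 1.82 and 1.74 CPM at baseline against 2.14, 2.18 and 2.86 CPM after DSS, and did not pass the test (adjusted p = 0.375). The calprotectin subunits S100a8 (5.52 and 7.02 CPM at baseline against 6.86, 6.62 and 7.74 CPM after DSS) and S100a9 likewise did not pass. Higher members numbered 3 without baseline replicate 1 and 4 without baseline replicate 2, DSS replicate 2 or DSS replicate 3. Il18, a cytokine that epithelial cells make constitutively, fell, at 67.4 and 76.9 CPM at baseline and 39.8, 47.4 and 45.2 CPM after DSS (log2 fold change -0.71 ± 0.13 SE, adjusted p = 0.0023).

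Of 28 tested genes of the tumour necrosis factor and NF-kB response, 11 were higher and 2 lower, 39.3% against 16.8%, with a median log2 fold change of 0.48. Most of the higher members encode secreted ligands: Il1a, Il1b, Il36g, Tnf, Cxcl1, Cxcl2, Cxcl3, Cxcl16 and Ccl28. Tnf itself was at 2.73 and 2.74 CPM at baseline and 3.51, 9.12 and 5.98 CPM after DSS (log2 fold change 1.18 ± 0.40 SE, adjusted p = 0.0408; adjusted p = 0.0577 after the GC adjustment). The neutrophil attractants rose from near 0, Cxcl1 being at 0.364 and 0.51 CPM at baseline and 0.98, 1.96 and 2.5 CPM after DSS (log2 fold change 2.05 ± 0.41 SE, adjusted p = 0.0037). Cxcl2 was at 0.202 and 0 CPM at baseline and 4.58, 7.94 and 15.4 CPM after DSS (log2 fold change 6.47 ± 0.81 SE, adjusted p = 0.00053). Cxcl3 was at 0.0404 and 0.0425 CPM at baseline and 1.23, 1.01 and 2.92 CPM after DSS. Il36g, an interleukin-1 family cytokine, was listed at 0 in both baseline libraries and at 0.392, 0.541 and 0.917 CPM after DSS. Feedback inhibitors moved less: Tnfaip3, which encodes the ubiquitin-editing enzyme A20, had a log2 fold change of 0.79. Relb and Il17ra were the lower members (log2 fold changes -0.66 and -0.54), and neither passed after the GC adjustment. The GC-adjusted fit called 11 higher and 0 lower, and the 2 fits shared 8 of the higher calls. Il6 was at 0.0808 and 0 CPM at baseline against 0.0392, 0.354 and 0.0367 CPM after DSS and did not pass. Leaving out single libraries gave 6 to 11 higher members, with 6 when either baseline library and 7 when DSS replicate 2 or 3 was left out.

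The 3 CXC chemokine genes share a stretch of promoter that holds an NF-kB site, shown here because the 3 genes moved together (sequences from RefSeq, GRCm38.p6, read 5′ to 3′ on the gene's own strand, with the match in capitals).
Cxcl1: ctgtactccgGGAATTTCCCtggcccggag
Cxcl2: ctgagctcagGGAATTTCCCtggtccccgg
Cxcl3: agctgcggggGGAATTTCCCcagcccgggc
The windows lie at chr5:90891165-90891194 (plus strand) for Cxcl1, chr5:90903793-90903822 (plus strand) for Cxcl2 and chr5:90786019-90786048 (plus strand) for Cxcl3. The capitals spell the same letters in all 3 genes. An NF-kB site on either strand was found in the 300 bases around the start (250 before, 50 after) of 4 of 8 higher members with a RefSeq promoter, and of 4 of 11 uncalled members. The share was 6.33% over the 12312 tested genes with such a window. A match is a description of the letters only.

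Interferon-gamma, made by T cells and natural killer cells, induces guanylate-binding proteins, immunity-related GTPases and the immunoproteasome. Of 32 genes of this response 14 were higher and 0 lower (43.8% against 16.8%), with a median log2 fold change of 0.66, and after the GC adjustment 15 were higher and 0 lower. The largest increases were in the GTPases that attack vacuoles of intracellular microbes. Tgtp1 was at 0.626 and 0.425 CPM at baseline and 7.09, 3.32 and 4.46 CPM after DSS (log2 fold change 3.23 ± 0.54 SE, adjusted p = 0.00135). Its near-identical neighbour Tgtp2, whose reads may be shared with it, was at 1.72 and 1.13 CPM at baseline and 8.27, 5.24 and 6.81 CPM after DSS. Iigp1 was at 10.7 and 7.76 CPM at baseline and 73.7, 35.5 and 50.2 CPM after DSS (log2 fold change 2.52 ± 0.51 SE, adjusted p = 0.00575). DSS replicate 1 was the highest library for all 3. The immunoproteasome subunits Psmb8, Psmb9 and Psmb10 rose by log2 fold changes of 0.94, 0.97 and 0.43, and the transcription factor Irf8 by 0.67. Leaving out single libraries gave 7 higher members without baseline replicate 2, 9 without baseline replicate 1 and 11 to 12 otherwise.

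Among genes of MHC class I antigen presentation 11 of 21 were higher and 1 lower (52.4% against 16.8%; 12 and 1 after the GC adjustment). H2-K1, a classical class I heavy chain, was at 877 and 831 CPM at baseline and 1278, 1171 and 1150 CPM after DSS (log2 fold change 0.49 ± 0.14 SE, adjusted p = 0.0169). Erap1, which trims peptides in the endoplasmic reticulum, was at 82.3 and 82.7 CPM at baseline and 180.3, 201 and 213 CPM after DSS (log2 fold change 1.26 ± 0.13 SE, adjusted p = 0.000121). Tapbp, the peptide-loading chaperone tapasin, was the lower member at 142 and 124 CPM at baseline and 58.3, 18.2 and 22.6 CPM after DSS (log2 fold change -2.01 ± 0.51 SE, adjusted p = 0.0164). Heavy chain genes of this family are near-identical, so their reads are uncertain. Higher members numbered 5 without baseline replicate 2 and 7 without baseline replicate 1. Of 32 type I interferon genes 3 were higher and 1 lower, with a median of 0.03 (2 and 2 after the GC adjustment, with a median of -0.11; 0 higher without baseline replicate 1). Bst2, a virus-tethering protein, had a log2 fold change of 1.15 (adjusted p = 0.00722, and 0.0903 without baseline replicate 1). Mx1 was lower at -0.71 (adjusted p = 0.0264; no call without baseline replicate 1 or 2 or DSS replicate 2, with adjusted p of 0.0859, 0.134 and 0.0864). Ifit1 spanned 10.2 and 35 CPM between the baseline libraries alone and was not called. The type I interferon shares, 9.38% higher and 3.12% lower, lay below the 16.8% and 16.7% of all genes.

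The interferon-stimulated response element, a motif bound by interferon regulatory factors, stood near the start of some immunity-related GTPases, shown here for 4 members that rose.
Tgtp1: tccaggaatcGAAACTGAAAcctacctgac
Tgtp2: tccaggaatcGAAACCGAAAcctactctga
Igtp: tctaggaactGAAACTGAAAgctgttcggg
Irgm1: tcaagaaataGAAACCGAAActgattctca
In these RefSeq windows (GRCm38.p6) the capitals mark the element, at chr11:48992304-48992333 (minus strand) for Tgtp1, chr11:49064263-49064292 (minus strand) for Tgtp2, chr11:58199512-58199541 (plus strand) for Igtp and chr11:48871425-48871454 (minus strand) for Irgm1. The element was found on either strand in 5 of 10 higher and 6 of 10 uncalled interferon-gamma genes with a window, and in 3.74% of all genes with a window. Igtp was at 17.4 and 20.1 CPM at baseline and 45.9, 30.9 and 34.1 CPM after DSS. Irgm1 was at 46.5 and 67.8 CPM at baseline and 119.5, 93.5 and 100.5 CPM after DSS, and both passed the test (adjusted p = 0.0115 and 0.00999).

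Of 28 T and cytotoxic lymphocyte genes, 17 were higher and 0 lower (60.7% against 16.8%), with a median log2 fold change of 1.34 (14 and 0 after the GC adjustment). Their summed level was 77.4 and 45.7 CPM at baseline and 208, 194 and 182 CPM after DSS. Gzma, a granule protease of cytotoxic cells, was at 9.19 and 3.62 CPM at baseline and 51.8, 42.8 and 47.6 CPM after DSS (log2 fold change 2.89 ± 0.45 SE, adjusted p = 0.00155). Itgae, the integrin of intraepithelial lymphocytes that binds E-cadherin, was at 8.73 and 4.66 CPM at baseline and 17.3, 18.8 and 16.9 CPM after DSS (log2 fold change 1.40 ± 0.31 SE, adjusted p = 0.00615). Cd8a was at 7.78 and 5.45 CPM at baseline and 17.8, 16.9 and 15.8 CPM after DSS, while Cd3e and Cd4 did not pass, with Cd4 at most 1.06 CPM. Fewer members passed without baseline replicate 2 (6) than without any other library (13 to 16). Gzma was at 3.62 CPM in baseline replicate 2 and 9.19 CPM in baseline replicate 1.

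Mcpt1, a chymase of mucosal mast cells, was at 2.55 and 1.4 CPM at baseline and 20.4, 103 and 56.8 CPM after DSS (log2 fold change 4.92 ± 0.86 SE, adjusted p = 0.00316). Mcpt2 was at 0.667 and 0.851 CPM at baseline and 9.84, 57.1 and 30.8 CPM after DSS (log2 fold change 5.42 ± 0.79 SE, adjusted p = 0.00137). The DSS libraries differed among themselves, with replicate 2 highest and replicate 1 lowest for both genes. Of 11 mast cell genes 7 were higher and 1 lower (7 and 1 after the GC adjustment), with 4 and 3 higher without baseline replicates 1 and 2. The mast cell shares were 63.6% higher and 9.09% lower, against 16.8% and 16.7% of all genes. The lower member was Kit, the stem cell factor receptor, which deep crypt secretory cells of the colon also express, at 149.5 and 158 CPM at baseline and 59.1, 64.8 and 61 CPM after DSS (log2 fold change -1.32 ± 0.17 SE, adjusted p = 0.00038). Of 25 macrophage and dendritic cell genes 7 were higher and 1 lower (28% and 4%; 8 and 1 genes after the GC adjustment), with summed levels of 70.3 and 70.0 CPM at baseline and 134, 157 and 153 CPM after DSS. Cd14, a receptor for bacterial lipopolysaccharide, was at 36.2 and 38.1 CPM at baseline and 88.8, 103 and 101 CPM after DSS (log2 fold change 1.40 ± 0.17 SE, adjusted p = 0.000304). This 1 gene made up a large part of the sums and of their rise. Ccr2, the chemokine receptor of inflammatory monocytes, was at 0.323 and 0.255 CPM at baseline and 2.12, 3.11 and 2.44 CPM after DSS. Of 20 neutrophil genes 9 were higher and 0 lower (6 and 0 after the GC adjustment; 4 to 5 higher without either baseline library or DSS replicate 2). Higher neutrophil genes made up 45% of that list in the first fit, against 16.8% of all genes. Trem1, an activating receptor, was at 0.141 and 0.149 CPM at baseline against 0.764, 3.93 and 5.06 CPM after DSS, and the granule genes Mmp8, Camp and Ltf did not pass.

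Of 12 B and plasma cell genes 3 were higher and 0 lower (3 and 0 after the GC adjustment; 1 higher without baseline replicate 1). The first-fit share of higher B and plasma cell genes was 25%, against 16.8% of all genes. Igha, encoding the heavy chain of immunoglobulin A, was at 2 and 2.06 CPM at baseline and 10.7, 11.7 and 6.09 CPM after DSS (adjusted p = 0.00218). Of 15 fibroblast genes 1 was higher (6.67%), with summed levels of 388 and 313 CPM at baseline and 392, 364 and 342 CPM after DSS. Of 11 endothelial genes 1 was lower (9.09%, against 16.7% of all genes). The pan-leukocyte gene Ptprc was at 16.6 and 13.4 CPM at baseline against 41.8, 54.1 and 39.9 CPM after DSS (adjusted p = 0.00243). The part of these immune transcripts in the interferon, chemokine and interleukin-1 results was not tested.

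**Figure D3:**
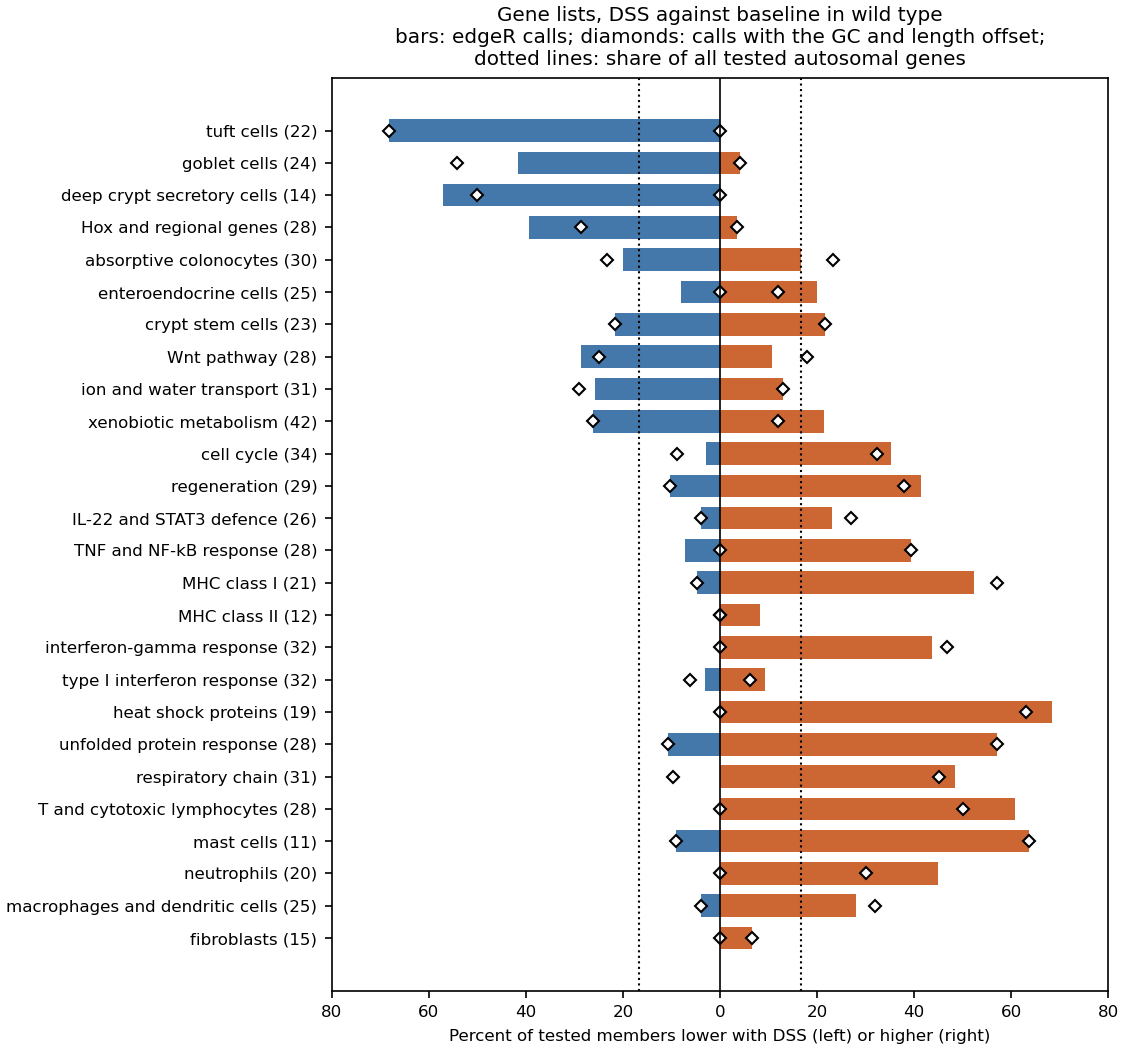
Share of tested members (horizontal axis, percent) called higher or lower after DSS in WT for each gene list, as bars, with diamonds for the same share in the GC-adjusted fit and dotted lines at the shares of all autosomal genes, 16.8% higher and 16.7% lower. Heat shock, T and cytotoxic lymphocyte, mast cell and unfolded protein lists reach furthest to the higher side, and tuft, deep crypt secretory and goblet lists to the lower side.

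Heat shock proteins fold newly made and damaged proteins, and their genes are switched on by the factor HSF1. Of 19 tested genes 13 were higher and 0 lower (68.4% against 16.8%), with a median log2 fold change of 1.53. After the GC adjustment 12 were higher, with a median of 1.17. Hsph1, a nucleotide exchange factor of the HSP70 machine, was at 28.5 and 25.2 CPM at baseline and 309.8, 369 and 271 CPM after DSS (log2 fold change 3.56 ± 0.61 SE, adjusted p = 0.00279). Hsp90aa1, the inducible cytosolic HSP90, was at 157 and 173 CPM at baseline and 772, 899 and 734 CPM after DSS (log2 fold change 2.28 ± 0.25 SE, adjusted p = 0.000189). The constitutive HSP70 Hspa8 was at 805 and 809 CPM at baseline and 2509, 2295 and 2040 CPM after DSS (log2 fold change 1.5 ± 0.17 SE, adjusted p = 0.000255). The mitochondrial pair Hspd1 and Hspe1, which form a folding cage, rose by 1.16 and 1.53 on the log2 scale. Hspa1a, an HSP70 gene known for strong induction by heat, was at 21.2 and 1.72 CPM at baseline and 37, 66.3 and 33.6 CPM after DSS and did not pass (adjusted p = 0.325), and its 2 baseline libraries differed widely. Leaving out single libraries kept 11 to 13 members higher.

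The unfolded protein response raises the folding capacity of the endoplasmic reticulum, where secretory proteins fold. Of 28 genes of the unfolded protein response, 16 were higher and 3 lower (57.1% against 16.8%), with a median of 0.45, and the GC adjustment again gave 16 and 3. Without baseline replicate 1, 10 were higher. Hspa5, the lumenal HSP70 known as BiP, was at 432 and 552 CPM at baseline and 1404, 1352 and 1387 CPM after DSS (log2 fold change 1.49 ± 0.16 SE, adjusted p = 0.000165). Its partner Hsp90b1 was at 289 and 328 CPM at baseline and 625, 662 and 688 CPM after DSS (log2 fold change 1.09 ± 0.15 SE, adjusted p = 0.00046). The increases covered lectin chaperones (Canx, 1.06), disulphide isomerases (Pdia4, 1.01) and the cochaperone Sdf2l1 (1.71). Some signalling components were lower: Ern1 and Ern2, which encode the IRE1 sensors, fell (log2 fold changes -0.75 and -1.37), as did the ubiquitin ligase Syvn1 (-1.56). Xbp1 was at 212 and 261 CPM at baseline against 269.5, 284 and 297 CPM after DSS. Atf4 was at 215 and 205 CPM at baseline against 212, 231 and 213 CPM after DSS, and neither passed.

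The promoter elements known from these responses are shown here for 3 heat shock genes and 4 endoplasmic reticulum genes that rose and 1 that fell.
Hsph1: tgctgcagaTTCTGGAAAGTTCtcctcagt
Chordc1: gtgcaaccgGAACGTTCGGGAAaattcctg
Hspe1: tccgttctaGAACCTTCCGGAAggccccgc
Hspa5: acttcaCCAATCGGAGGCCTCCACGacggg
Hsp90b1: agagtgCGTGGTGAGGCACGATTGGtgagt
Canx: tattgaCCAATCACCACGCTCCACGaagaa
Dnajc3: ccacaaCCAATCAGCGCCAACCACGacccg
Syvn1: tcgcaaCCAATCGGCGGTAGCCACGggaac
The capitals mark a heat shock element in the first 3 and an ER stress element in the others, read on the gene's strand (RefSeq, GRCm38.p6) at chr5:149636280-149636309 (minus strand) for Hsph1, chr9:18292254-18292283 (plus strand) for Chordc1, chr1:55088055-55088084 (plus strand) for Hspe1, chr2:34772019-34772048 (plus strand) for Hspa5, chr10:86705528-86705557 (minus strand) for Hsp90b1, chr11:50325795-50325824 (minus strand) for Canx, chr14:118937821-118937850 (plus strand) for Dnajc3 and chr19:6046526-6046555 (plus strand) for Syvn1. On either strand, the heat shock element was found in 4 of 9 higher and 0 of 4 uncalled heat shock genes with a window, against 0.577% of all genes with one. Hspd1 and Hspe1 face away from each other across a shared region, so their matches come from overlapping windows. The ER stress element was found in 7 of 14 higher, 1 of 2 lower and 1 of 8 uncalled unfolded protein response genes with a window, against 0.146% (18 genes) of all. Syvn1, at 62.7 and 48 CPM at baseline and 27.2, 14 and 15.3 CPM after DSS, carried the element and fell.

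Of 34 cell cycle genes 12 were higher and 1 lower (35.3% against 16.8%), with a median of 0.32, or 11 and 3 after the GC adjustment. Pcna, the sliding clamp of DNA polymerase, was at 76.4 and 99.4 CPM at baseline and 233, 252 and 258 CPM after DSS (log2 fold change 1.5 ± 0.21 SE, adjusted p = 0.00056). Mcm6, a subunit of the replicative helicase, was at 69.2 and 81.8 CPM at baseline and 150.4, 156 and 157 CPM after DSS (log2 fold change 1.04 ± 0.17 SE, adjusted p = 0.00127). Mcm2, Mcm3, Mcm5 and Mcm7 rose by 0.93, 1.10, 1.21 and 0.69 on the log2 scale. The mitotic checkpoint kinase Bub1 also rose (0.99, adjusted p = 0.123 after the GC adjustment). Mki67, the common proliferation marker, was at 248 and 206 CPM at baseline and 75.7, 127 and 216 CPM after DSS and did not pass (adjusted p = 0.286). Plk1, a mitotic kinase, fell, at 200.4 and 154 CPM at baseline and 72, 47.2 and 55.2 CPM after DSS (log2 fold change -1.61 ± 0.21 SE, adjusted p = 0.000422). Without baseline replicate 1 the number of higher members was 5, against 10 to 12 without any other single library.

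Of 29 tested genes linked to epithelial regeneration, 12 were higher and 3 lower (41.4% against 16.8%; 11 and 3 after the GC adjustment). Ly6a, the surface protein Sca-1 that marks fetal-like repairing epithelium, was at 79.8 and 77.5 CPM at baseline and 231, 250.2 and 229 CPM after DSS (log2 fold change 1.59 ± 0.20 SE, adjusted p = 0.000342). Clu, the marker of revival stem cells, was at 4.04 and 6.72 CPM at baseline against 2.82, 3.47 and 3.19 CPM after DSS and did not pass. Ccn1, a matrix protein induced by YAP, rose by 1.86. Ligands of the epidermal growth factor receptor changed in both directions. Areg was at 20.6 and 29.8 CPM at baseline and 61.4, 58.7 and 64.6 CPM after DSS (log2 fold change 1.29 ± 0.25 SE, adjusted p = 0.00336). Ereg was at 0.849 and 1.66 CPM at baseline and 5.23, 6.86 and 5.56 CPM after DSS (log2 fold change 2.23 ± 0.44 SE, adjusted p = 0.00335). Hbegf was higher, with a log2 fold change of 0.96, and Tgfa and Egf were lower (-0.69 and -0.86). The receptor gene Egfr was at 51 and 40.3 CPM at baseline against 47.5, 56.9 and 56.8 CPM after DSS and did not pass. The feedback inhibitor Errfi1 rose by 1.44 on the log2 scale (adjusted p = 0.00037). Without baseline replicate 1, 6 of the regeneration genes and 3 of the EGF family genes were higher, against 12 and 6 with all libraries.

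Stem cell markers had no common direction, with 5 of 23 higher and 5 lower (5 and 5 after the GC adjustment, 2 and 2 without baseline replicate 1, 5 and 9 without DSS replicate 1). With all libraries in the first fit the share was 21.7% in each direction, against 16.8% higher and 16.7% lower among all genes. Lgr5, the R-spondin receptor of crypt base stem cells, was at 16.1 and 16.4 CPM at baseline and 13.3, 16 and 14.3 CPM after DSS and did not pass (adjusted p = 0.715). Cd44 rose (log2 fold change 0.98 ± 0.19 SE, adjusted p = 0.00292). Sox9 fell, at 60.6 and 55.3 CPM at baseline and 28.3, 22.1 and 18.4 CPM after DSS (log2 fold change -1.34 ± 0.32 SE, adjusted p = 0.0101). Of 28 tested Wnt pathway genes 3 were higher and 8 lower (28.6% lower against 16.7%; 5 and 7 after the GC adjustment). Tcf7l2, the transcription factor through which Wnt signals in the gut, was at 86.1 and 80 CPM at baseline and 30.2, 27.1 and 26 CPM after DSS (log2 fold change -1.58 ± 0.21 SE, adjusted p = 0.000434). Ctnnb1, which encodes its partner beta-catenin, was higher at 0.66. The ligand gene Wnt11 rose at a low level, from 0.24 and 0.36 CPM at baseline to 1.65, 2.03 and 2.02 CPM after DSS (log2 fold change 2.645 ± 0.328 SE, adjusted p = 0.000333). Axin2, a widely used Wnt target, was at 57.7 and 48.9 CPM at baseline against 30.1, 13 and 13.7 CPM after DSS without passing the test (adjusted p = 0.125). Lower Wnt members numbered 3 without either baseline library, 4 without DSS replicate 2 or 3 and 11 without DSS replicate 1. Of 28 regional identity genes 11 were lower and 1 higher (39.3% against 16.7%; 8 and 1 after adjustment). Hoxa13, a marker of the distal gut, was at 46.5 and 41.4 CPM at baseline and 10.3, 5.85 and 4.88 CPM after DSS (log2 fold change -2.65 ± 0.68 SE, adjusted p = 0.017). Lower regional genes numbered 3 and 5 without baseline replicates 1 and 2, and 6 and 5 without DSS replicates 2 and 3.

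Tuft cells are chemosensory and signal through taste-type receptors and eicosanoids. Of 22 tested tuft cell genes 15 were lower and 0 higher (68.2% against 16.7%), with a median log2 fold change of -1.31 and -1.40 after the GC adjustment, where 15 were again lower. Their summed level was 91.0 and 107 CPM at baseline and 43.2, 39.6 and 39.9 CPM after DSS. Dclk1, a kinase used as a tuft marker, was at 10.1 and 14.4 CPM at baseline and 4.86, 2.76 and 3.91 CPM after DSS (log2 fold change -1.68 ± 0.27 SE, adjusted p = 0.00117). Trpm5, the cation channel of taste signalling, was at 12.4 and 14.6 CPM at baseline and 4.21, 1.83 and 2.18 CPM after DSS (log2 fold change -2.30 ± 0.41 SE, adjusted p = 0.00233; -1.68 after the GC adjustment). Sh2d6, an adaptor, was at 11.9 and 13.6 CPM at baseline and 1.41, 0.913 and 1.54 CPM after DSS (log2 fold change -3.30 ± 0.28 SE, adjusted p = 6.13e-05). Pou2f3, the transcription factor that specifies the lineage, fell by 1.65 on the log2 scale (adjusted p = 0.0158). For Sh2d6, groups that did not overlap were required by the rule for naming the largest falls. Alox5ap, Plcb2 and Fyb did not pass. Leaving out single libraries gave 14 lower members without DSS replicate 1 and 8 to 9 otherwise.

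Goblet cells secrete the mucus gel that covers the colon. Of 24 tested goblet genes 10 were lower and 1 higher (41.7% against 16.7%; 13 and 1 after the GC adjustment), and the summed level went from 42920 and 43510 CPM to 9818, 8746 and 8253 CPM. Muc2, the gel-forming mucin of the colon, was at 9317 and 15980 CPM at baseline and 1988, 1532 and 1534 CPM after DSS (log2 fold change -2.91 ± 0.22 SE, adjusted p = 3.06e-05). Clca1, a mucus-processing protease, was at 16500 and 14950 CPM at baseline and 2493, 2502 and 2043 CPM after DSS (log2 fold change -2.74 ± 0.18 SE, adjusted p = 6.58e-06). Fcgbp, which is linked to the mucin gel, was at 11830 and 6882 CPM at baseline and 1004, 339 and 356 CPM after DSS; its log2 fold change of -4.05 was -2.47 after the GC adjustment. Of the transcription factors on the list, Creb3l1 and Gfi1 fell (log2 fold changes -2.16 and -1.38), and Foxa3 was the higher member (0.49). Retnlb, a bactericidal resistin-like protein, fell by 1.66 on the log2 scale (adjusted p = 0.0143). Atoh1, the factor that commits cells to secretory fates, was at 91.3 and 84 CPM at baseline against 103, 75.2 and 90.6 CPM after DSS. Spdef, which drives goblet maturation, was at 109 and 97.9 CPM at baseline against 98.1, 47.4 and 59.2 CPM after DSS. Tff3, the trefoil peptide, was at 392 and 416 CPM at baseline against 299.7, 297 and 258 CPM after DSS, and none of these passed the test. Agr2, a mucin-folding isomerase, was at 954 and 1100 CPM at baseline against 1271, 1468 and 1531 CPM after DSS and did not pass either. Lower members numbered 8 to 11 when single libraries were left out.

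Of 14 deep crypt secretory genes 8 were lower and 0 higher (57.1% against 16.7%; 7 after the GC adjustment), Kit and Ang4 among them. Mptx1, a pentraxin, was at 3499 and 3784 CPM at baseline and 392, 399.5 and 223 CPM after DSS (log2 fold change -3.43 ± 0.35 SE, adjusted p = 0.000232). The Notch ligand Dll4 fell by 1.18 on the log2 scale (adjusted p = 0.0111, and 0.0583 and 0.0591 without baseline replicates 1 and 2). Reg4, another marker of these cells, was at 389.6 and 458 CPM at baseline against 262, 303 and 288 CPM after DSS and did not pass. Lower members numbered 4 without baseline replicate 2 and 5 without baseline replicate 1. Of 25 enteroendocrine genes 5 were higher and 2 lower, with a median of 0.65, and 3 and 0 after the GC adjustment. Cpe, a prohormone-processing peptidase, rose (log2 fold change 0.91 ± 0.17 SE, adjusted p = 0.00275). Chga, a granule protein, was lower (log2 fold change -0.88 ± 0.23 SE, adjusted p = 0.0125), a call lost on leaving out any 1 of baseline replicates 1 and 2 and DSS replicates 2 and 3 (adjusted p = 0.0521, 0.0844, 0.0541 and 0.0561). The number of higher enteroendocrine genes was 1 without either baseline library or DSS replicate 3 and 2 without DSS replicate 2.

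**Figure D4:**
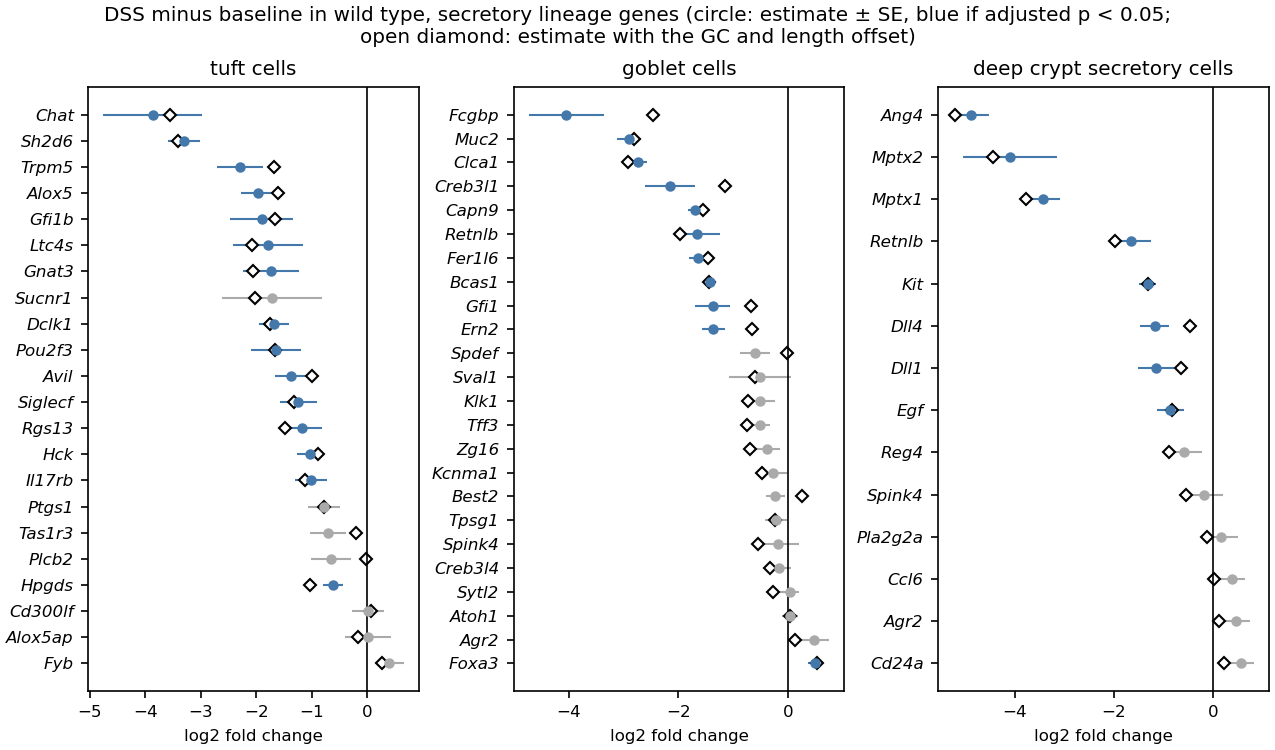
Log2 fold change (DSS minus baseline, WT; horizontal axis, circles with bars of 1 SE) of every tested tuft, goblet and deep crypt secretory gene, with diamonds for the GC-adjusted fit. Tuft genes lie mostly below 0 (median -1.31), and in goblet cells Fcgbp, Muc2 and Clca1 lie furthest below 0 while Atoh1 and Agr2 do not.

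Absorptive colonocyte genes were mixed, with 5 of 30 higher and 6 lower (7 and 7 after the GC adjustment; 3 higher without baseline replicate 1 and 8 without baseline replicate 2, and 2 to 3 lower without any library but DSS replicate 1). With all libraries in the first fit the shares were 16.7% higher and 20% lower, near the 16.8% and 16.7% of all genes. Cdhr5, a protocadherin of the brush border, fell, at 541 and 632 CPM at baseline and 199.7, 116 and 137 CPM after DSS (log2 fold change -1.96 ± 0.22 SE, adjusted p = 0.000255). Plac8 rose (log2 fold change 0.83 ± 0.17 SE, adjusted p = 0.00327). Of 31 ion and water transport genes 4 were higher and 8 lower (12.9% and 25.8% against 16.8% and 16.7%, and 4 and 9 genes after the GC adjustment). Scnn1a, the alpha subunit of the sodium channel ENaC, was at 136 and 133 CPM at baseline and 33.4, 12 and 13.8 CPM after DSS (log2 fold change -2.77 ± 0.46 SE, adjusted p = 0.00257; -2.02 after the GC adjustment). Cftr, the chloride channel of crypts, was higher at 171 and 168 CPM at baseline and 267, 305 and 331 CPM after DSS (log2 fold change 0.83 ± 0.16 SE, adjusted p = 0.00316). Slc26a3, the chloride-bicarbonate exchanger of surface cells, was at 729 and 795 CPM at baseline against 691, 503 and 514 CPM after DSS and did not pass. Higher transport genes numbered 1 without either baseline library or DSS replicate 3 and 2 without DSS replicate 2. Lower ones numbered 2 to 4 without either baseline library or DSS replicate 2 or 3, and 12 without DSS replicate 1.

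Of 31 nuclear genes of the respiratory chain 15 were higher and 0 lower (48.4% against 16.8%), though by small amounts, with a median log2 fold change of 0.41. After the GC adjustment 14 were higher and 3 lower, with a median of 0.25. Cycs, which encodes cytochrome c, was at 113 and 131 CPM at baseline and 289, 317 and 293 CPM after DSS (log2 fold change 1.30 ± 0.18 SE, adjusted p = 0.000577). Ndufb8, a complex I subunit, was at 62.6 and 55.4 CPM at baseline and 109, 109 and 106 CPM after DSS (log2 fold change 0.87 ± 0.17 SE, adjusted p = 0.00337). Without baseline replicate 1, 2 members were higher, against 8 without DSS replicate 3 and 10 to 14 without any other library. Genes of cell death and inflammasomes had 11 of 26 higher and 5 lower (42.3% and 19.2% against 16.8% and 16.7% of all genes). Both fits shared 4 of the higher and 5 of the lower calls. The lower ones were led by the gasdermin C genes, which lie side by side on chromosome 15 and encode pore-forming proteins. Gsdmc2 (chr15:63824346-63845177, GRCm38) was at 1340 and 1755 CPM at baseline and 346, 483 and 468 CPM after DSS (log2 fold change -1.84 ± 0.21 SE, adjusted p = 0.000222). Gsdmc3 was at 374 and 463 CPM at baseline and 125, 164 and 149.9 CPM after DSS. Gsdmc4 was at 1736 and 2144 CPM at baseline and 738, 864 and 801 CPM after DSS, and reads may be shared between these near-identical copies. Nlrp3, the inflammasome sensor of myeloid cells, was at 0.283 and 0 CPM at baseline and 1.63, 3.56 and 5.16 CPM after DSS (log2 fold change 4.56 ± 0.87 SE, adjusted p = 0.00334). The higher members numbered 2 without baseline replicate 1, 5 to 6 without baseline replicate 2 or DSS replicate 2 or 3, and after the GC adjustment 7 were higher and 6 lower.

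Of 26 glycolysis and hypoxia genes 10 were higher and 3 lower (38.5% against 16.8%; 12 and 4 after the GC adjustment, 6 higher without baseline replicate 1). Ldha, lactate dehydrogenase A, was at 879.7 and 1022 CPM at baseline and 1630, 1676 and 1650 CPM after DSS (log2 fold change 0.80 ± 0.14 SE, adjusted p = 0.0021). P4ha1, a collagen prolyl hydroxylase induced by hypoxia, was at 15.6 and 14.4 CPM at baseline and 43.2, 37.3 and 42.3 CPM after DSS (log2 fold change 1.45 ± 0.14 SE, adjusted p = 0.000118). Car9, a carbonic anhydrase that is a common hypoxia marker, was lower (log2 fold change -0.56). Of 27 antioxidant and NADPH genes 10 were higher and 3 lower (10 and 4 after the GC adjustment; 3 higher without baseline replicate 1 and 6 without DSS replicate 2). The antioxidant and NADPH shares were 37% higher and 11.1% lower, against 16.8% and 16.7% of all genes. Srxn1, which repairs oxidised peroxiredoxins, was at 87.2 and 104 CPM at baseline and 166, 160.3 and 171 CPM after DSS (log2 fold change 0.80 ± 0.13 SE, adjusted p = 0.0012). Hmox1, heme oxygenase 1, was lower although its groups overlapped, at 3.9 and 10 CPM at baseline against 2.98, 4.18 and 3.76 CPM after DSS. Prostaglandin genes were mixed, with 4 of 26 higher and 5 lower (4 and 4 after the GC adjustment). In the first fit the shares were 15.4% higher and 19.2% lower, near the 16.8% and 16.7% of all genes. Without baseline replicate 1 there were 2 higher members, and without baseline replicate 2 or DSS replicate 2 there were 3 lower ones. Ptgs2, the inducible cyclooxygenase, was at 0 and 0.17 CPM at baseline and 6.01, 7.87 and 11.6 CPM after DSS (log2 fold change 6.63 ± 1.09 SE, adjusted p = 0.00245). The prostaglandin transporter gene Slco2a1 was at 50.1 and 50.2 CPM at baseline and 23.4, 13.3 and 13.7 CPM after DSS (log2 fold change -1.58 ± 0.30 SE, adjusted p = 0.00302). Tfrc, the transferrin receptor, rose, at 211 and 268 CPM at baseline and 704, 584 and 722 CPM after DSS (log2 fold change 1.48 ± 0.14 SE, adjusted p = 0.000118). The calcium, phosphate and iron list, which holds Tfrc, had 13.6% of its genes higher and 27.3% lower, against 16.8% and 16.7% of all genes. Of 22 calcium, phosphate and iron genes 3 were higher and 6 lower (2 and 6 after the GC adjustment; 1 higher without baseline replicate 1).

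Clock genes changed in both directions. The circadian clock is a feedback loop in which CLOCK and BMAL1 drive their own repressors, and its genes vary with time of day; the labels give no hour of collection, so a difference in hour and DSS cannot be told apart. Of 18 tested clock genes 6 were higher and 5 lower (7 and 4 after the GC adjustment), with 2 to 3 lower without any library but DSS replicate 1. Clock gene shares were 33.3% higher and 27.8% lower in the first fit, against 16.8% and 16.7% of all genes. Nr1d1, the repressor REV-ERB alpha, was at 96.7 and 82.3 CPM at baseline and 3.78, 2.7 and 2.73 CPM after DSS (log2 fold change -4.86 ± 0.21 SE, adjusted p = 1.61e-07). Npas2, a partner of BMAL1, was at 28.4 and 27 CPM at baseline and 6.74, 4.72 and 4.73 CPM after DSS (log2 fold change -2.36 ± 0.20 SE, adjusted p = 5.79e-05). Per2, a repressor of the loop, was at 13.6 and 9.08 CPM at baseline and 77.6, 35.2 and 34 CPM after DSS (log2 fold change 2.11). Arntl, which encodes BMAL1, was at 50.6 and 48.5 CPM at baseline against 50.3, 63.2 and 59.7 CPM after DSS and did not pass. Among genes responsive to corticosteroids 35.3% were higher and 17.6% lower, against 16.8% and 16.7% of all genes. Corticosteroid-responsive genes had 6 of 17 higher and 3 lower (6 and 2 after the GC adjustment; 3 higher without either baseline library or DSS replicate 3). Fkbp5, a cochaperone induced by glucocorticoids, was at 80.2 and 93.5 CPM at baseline and 180.1, 185 and 199.7 CPM after DSS (log2 fold change 1.12, adjusted p = 0.00555, and 0.0673 without baseline replicate 1).

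A pair of clock genes that moved in opposite directions both hold the E box CACGTG, in capitals, near their start.
Cry1: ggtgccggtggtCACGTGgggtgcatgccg
Ciart: cgtgcagaaccgCACGTGtctgggaggggg
They lie at chr10:85185097-85185126 (minus strand) for Cry1 and chr3:95882255-95882284 (minus strand) for Ciart (RefSeq, GRCm38.p6). Cry1, a repressor of the loop, was at 10.8 and 8.42 CPM at baseline and 37.7, 21.9 and 26.7 CPM after DSS. Ciart, another repressor, was at 2.1 and 2.34 CPM at baseline and 0.823, 1.16 and 0.844 CPM after DSS. The E box, which reads the same on both strands, was found in 2 of 4 higher, 1 of 4 lower and 2 of 7 uncalled clock genes with a window, and in 10.7% of all genes with one.

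The DKO libraries gave a second DSS comparison that shares no library with the WT one. There 23.6% of the 18500 genes were called, 2325 higher and 2036 lower, the background for the DKO list counts below. Of these calls 2533 were in the same direction as in WT (41.0% of the WT calls and 58.1% of the DKO calls) and 48 in the opposite one. Ribosomal RNA counts in the baseline DKO libraries ran from 0.315% to 23%, against 0.197% to 1.59% in the WT libraries, and the part this plays was not tested. Xist was at 14.5, 8.4 and 6.8 CPM at baseline and 633, 709 and 716 CPM after DSS in DKO. Ddx3y was at 52.5, 42.6 and 47.4 CPM at baseline and 0.203, 0.162 and 0.181 CPM after DSS in DKO, so sex and DSS cannot be told apart in DKO either. Tuft and goblet genes were lower in DKO too, 13 of 22 and 18 of 24, though 2 tuft genes were higher there. Reg3b rose by 5.87 and Il1b by 5.18 on the log2 scale in DKO. Of the interferon-gamma genes 1 of 32 was higher and 11 lower in DKO, beside 14 and 0 in WT, and of the cell cycle genes 1 was higher and 11 lower, beside 12 and 1 in WT. The difference itself passed the interaction test in 286 genes (1.55%), 203 of them called in WT, and in 7 of the 32 interferon-gamma genes. Tgtp1 had log2 fold changes of 3.23 in WT and -1.50 in DKO (difference -4.73 ± 0.71 SE, adjusted p = 0.0126). It was at 0.712, 0.969 and 1.01 CPM at baseline and 0.592, 0.162 and 0.181 CPM after DSS in DKO. Mcm6 had 1.04 and -0.11 (adjusted p = 0.0297), and Hsp90aa1 2.28 and 0.64 (adjusted p = 0.0268). Mptx1 fell further in DKO (-9.57 against -3.43, adjusted p = 0.00225), reaching 5.42, 5.53 and 2.97 CPM after DSS in DKO. The number of interaction calls depended on single libraries, from 2 and 18 without baseline WT replicates 1 and 2 to 1450 without DSS DKO replicate 1. Without any of the other libraries the count ran from 43 to 364.

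**Figure D5:**
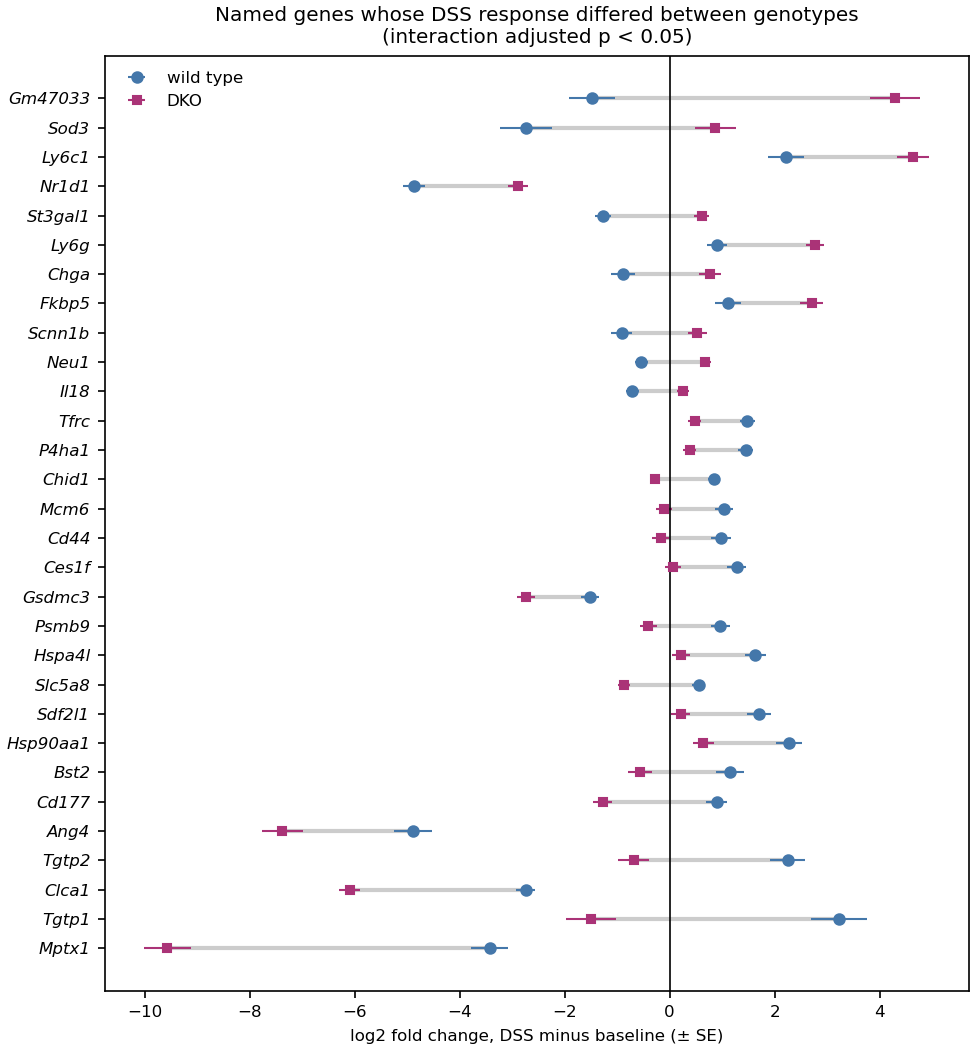
Log2 fold change (DSS minus baseline; horizontal axis) in WT (circles) and DKO (squares), with bars of 1 SE, of the 30 named genes whose DSS response differed between genotypes at an adjusted p under 0.05 in the interaction test. Tgtp1 and Tgtp2 lie above 0 in WT and below 0 in DKO, and Mptx1, Clca1 and Ang4 lie below 0 in both and furthest in DKO.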

How the data were processed

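Polyadenylated RNA of enriched colonic epithelial cells was sequenced from 11 libraries, 5 of them WT. The authors deposited raw counts per gene, and per the submitters' processing notes reads were aligned with STAR to mm10; the counter, annotation and use of strand are each not given in the sources used here. All 11 count columns matched a sample title. Genes passing filterByExpr (minimum count 10) were tested with edgeR 4.0.16 (R 4.3.3; TMM scaling, quasi-likelihood test, robust) over all 11 libraries with 1 mean per group, and p-values were adjusted by Benjamini-Hochberg over 19267 genes; an adjusted p under 0.05 is called higher or lower. CPM are TMM-scaled, log2 CPM add a prior count of 2, and fold changes are the fitted coefficients of the count model. Gene positions, types, length and GC content came from GENCODE M21 and RefSeq, which held 95.6% of the gene names. Tested genes took at least 99.91% of each WT library's counts.

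The GC-adjusted fit put a smooth mgcv surface (basis 6 per axis, genes of mean log2 CPM of at least 1) into edgeR as an offset. Replicate libraries differed by 15.1 to 74.2 times the sampling variance, so none was counted as a duplicate. The functions were tested on simulated counts.

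The comparison and the 53 gene lists were chosen with earlier results of these data known. Of the list entries, 69 were not tested, most of them because their counts were below the filter. Others were left out because they are not autosomal, some of them abundant, such as Cldn2 with 10308 to 45173 counts per library. Prac1 and C5 were not among the genes counted. Genes named were the 15 largest rises and falls among called coding genes of mean log2 CPM of at least 1 with groups apart, up to 4 called members of lowest adjusted p per list, uncalled members of high level or defining role, and the 10 lowest interaction p-values; other genes, such as Igtp, Hspd1, the Mcm genes, Retnlb and Hoxa13, were named after their values were seen. Alternatives were DESeq2 1.42.0 (size factors, Wald test), other count filters, WT libraries alone, a replicate block, a fold threshold of 1.5, no robust step, and leaving out each library.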

Additional observations from a re-analysis of the deposited data

Results flagged for a closer look

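In 30 named genes the log2 fold change after DSS differed between DKO and WT at an adjusted p under 0.05 in edgeR's interaction test, and values here are the DKO response minus the WT response on the log2 scale, with its SE. Called lower in WT and lower still in DKO were Mptx1, a pentraxin (-6.14 ± 0.52), Clca1, a mucus-processing protease (-3.35 ± 0.25), Ang4, an antimicrobial ribonuclease (-2.50 ± 0.47), and Gsdmc3, a gasdermin (-1.22 ± 0.24). Higher in WT, with a DKO response that was smaller or of the other sign, were interferon-induced Tgtp1 (-4.73 ± 0.71), Tgtp2 (-2.93 ± 0.44), Psmb9 (-1.38 ± 0.24) and Bst2 (-1.72 ± 0.35). The same held for the chaperones Hsp90aa1 (-1.64 ± 0.31), Hspa4l (-1.41 ± 0.26) and Sdf2l1 (-1.50 ± 0.29), the helicase subunit Mcm6 (-1.15 ± 0.22), the hyaluronan receptor Cd44 (-1.16 ± 0.25), the transferrin receptor Tfrc (-1.01 ± 0.19), the prolyl hydroxylase P4ha1 (-1.07 ± 0.18), the carboxylesterase Ces1f (-1.21 ± 0.23), the chitinase-domain protein Chid1 (-1.13 ± 0.16) and Cd177 (-2.18 ± 0.28). The fatty acid transporter Slc5a8 had a difference of -1.42 ± 0.17. Its higher call in WT was lost after the GC adjustment (log2 fold change 0.08, adjusted p = 0.615) and without baseline replicate 1 (adjusted p = 0.0668). The WT call of Cd177 was also lost without baseline replicate 1 (adjusted p = 0.0881).

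Positive differences were found for Sod3, a secreted superoxide dismutase (3.61 ± 0.63), Ly6c1 (2.42 ± 0.42) and the neutrophil marker Ly6g (1.86 ± 0.25), the clock repressor Nr1d1 (1.98 ± 0.26), the sialyltransferase St3gal1 (1.89 ± 0.21), the granule protein Chga (1.65 ± 0.31), the glucocorticoid-induced Fkbp5 (1.59 ± 0.31), the sodium channel subunit Scnn1b (1.44 ± 0.27), the sialidase Neu1 (1.22 ± 0.16), the cytokine Il18 (0.96 ± 0.18) and the gene model Gm47033 (5.77 ± 0.64). Without baseline WT replicate 1 the interaction test called 2 genes among all, against 286 with every library.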

How the results depend on the processing

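Of 198 named genes, all kept their direction and call with DESeq2's size factors, DESeq2's Wald test, no robust step, and without sex-chromosome, mitochondrial and ribosomal RNA genes; 3 lost their call without the count filter, 5 with WT libraries alone and 3 under the replicate block. The number called in WT, 6185, was within 1.5 times under these settings (DESeq2 Wald test 7037) and fell to 1572 (554 higher, 1018 lower) when a fold change above 1.5 was required. Leaving out single libraries gave 2660 to 6214 calls, 1364 to 2766 of them higher and 1296 to 3448 lower, the fewest without baseline replicate 1, which lost the call of 44 named genes. Deviations from the group mean, taken in baseline and DSS libraries of the same number, correlated at 0.09 and 0.04. With 2 baseline libraries their deviations mirror each other, so these values cannot decide whether libraries of the same number were paired. With the replicate block 5841 genes were called.

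The GC adjustment, chosen after seeing the data, called 5613 genes, kept 65.5% of the calls and ended those of 27 named genes. Among them Abcc3, an organic anion exporter, went from a log2 fold change of -0.55 to 0.12 (adjusted p = 0.63); the cause was not tested. Interaction calls, 286 as reported, were 1292 with DESeq2's Wald test, 1409 without the filter, 818 with the GC adjustment, 304 with the replicate block and 2 to 1450 when single libraries were left out. With 2 baseline libraries, sex that runs with treatment and no recorded hour of collection, differences cannot be assigned to DSS alone.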

Other observations

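Enzymes that build mucin sugar chains changed in both directions, 7 of 28 higher and 7 lower (8 and 7 after the GC adjustment, 2 and 3 without baseline replicate 1). With all libraries in the first fit the share was 25% in each direction, against 16.8% higher and 16.7% lower among all genes. Galnt3, which starts O-glycans, was at 95.2 and 109.7 CPM at baseline and 178, 199 and 218 CPM after DSS (log2 fold change 0.95 ± 0.13 SE, adjusted p = 0.00053). C1galt1, which extends them, had a log2 fold change of 0.64 (0.14 and no call after the GC adjustment). B4galnt2, which makes the Sda blood group sugar, was at 349 and 313 CPM at baseline and 684, 741 and 816 CPM after DSS (log2 fold change 1.17 ± 0.16 SE, adjusted p = 0.00046). St3gal6, a sialyltransferase, was at 218 and 223 CPM at baseline and 113, 123 and 103 CPM after DSS (log2 fold change -0.96 ± 0.14 SE, adjusted p = 0.000593), and Gal3st1, a sulphotransferase, had a log2 fold change of -1.15. Of 14 genes for short-chain fatty acids 5 were higher and 1 lower (4 and 1 after the GC adjustment, 3 higher without baseline replicate 1). The short-chain fatty acid shares were 35.7% higher and 7.14% lower in the first fit, against 16.8% and 16.7% of all genes. Slc16a3, a lactate exporter, was at 3.11 and 3.04 CPM at baseline and 11.9, 10.4 and 15.5 CPM after DSS (log2 fold change 2.04 ± 0.31 SE, adjusted p = 0.000815). Hcar2, a butyrate and niacin receptor, was at 0.202 and 0.383 CPM at baseline and 1.43, 2.67 and 4.29 CPM after DSS (log2 fold change 3.25 ± 0.53 SE, adjusted p = 0.00125). Ffar3 was lower at -1.97. Of 42 genes of xenobiotic metabolism 9 were higher and 11 lower (5 and 11 after the GC adjustment, 2 and 7 without baseline replicate 1). With all libraries in the first fit the shares were 21.4% higher and 26.2% lower, against 16.8% and 16.7% of all genes. The glutathione transferase Gstm1 was at 167 and 239 CPM at baseline and 69, 64.1 and 53.6 CPM after DSS (log2 fold change -1.70 ± 0.17 SE, adjusted p = 0.000132). Cyp2c65 was higher at 125 and 197 CPM at baseline and 324, 357 and 375 CPM after DSS (log2 fold change 1.13 ± 0.24 SE, adjusted p = 0.00537). Complement genes had 4 of 12 higher and 0 lower (5 and 2 after the GC adjustment, 2 higher without baseline replicate 2). Among these complement genes 33.3% were higher in the first fit, against 16.8% of all genes. Cfb was at 8.97 and 8.38 CPM at baseline and 22.2, 23.3 and 20.7 CPM after DSS (log2 fold change 1.35 ± 0.27 SE, adjusted p = 0.00355). C3 was at 22.6 and 7.02 CPM at baseline and 66.3, 51.3 and 85.2 CPM after DSS (adjusted p = 0.0143, and 0.0668 without baseline replicate 2). Keratins of squamous epithelium were near 0, Krt14 at 0.586 and 0.617 CPM at baseline against 1.86, 2 and 1.56 CPM after DSS.

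Some classes of non-coding gene had few higher calls: of 812 antisense genes 24 were higher and 141 lower, and of 629 long intergenic RNA genes 18 and 110. Of 286 processed transcripts 13 were higher and 68 lower, and of 797 genes of unverified type 39 and 94. Among all 18500 genes 16.8% were higher and 16.7% lower, so these classes stood apart mainly by few higher calls. Of 898 processed pseudogenes 40 were higher and 44 lower. Of 14340 coding genes 2910 were higher and 2541 lower. Counting by strand is not stated, so antisense reads cannot be told from those of the partner gene. The baseline WT libraries differed from each other in MHC class II genes: H2-Ab1 was at 73.1 and 10.4 CPM at baseline against 160, 129 and 101 CPM after DSS. Cd74 was at 170.5 and 31.7 CPM at baseline against 140.3, 100.1 and 74.5 CPM after DSS, with baseline replicate 2 the lowest library for both. Of 12 class II genes 1 was higher after DSS (0 after the GC adjustment), and 6 were without baseline replicate 1.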
